A study of Homo sapiens with 20 samples.

Results

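The ARP2/3 complex is the actin nucleator of branched filament networks, and its subunit genes were read here in lung cancer lines with and without decitabine (DAC). The members are the 10 rows of the expression table with the symbols ACTR2, ACTR3, ACTR3B, ARPC1A, ARPC1B, ARPC2, ARPC3, ARPC4, ARPC5 and ARPC5L, out of 36076 genes in the table, and the rule that selects them is their symbols alone, set with earlier results of these data known. mRNA-seq was performed on the human lung cancer lines A549, CL1-0, CL1-5, PC9, H1299 and H1792, each as a Mock culture given PBS and a culture given 100 nM DAC for 72 h and then grown for 3 drug-free days. DAC is a cytosine analog that traps and depletes DNA methyltransferases. With 1 library per line and treatment (12 libraries), the cell lines were the replicates, and nothing in these samples measures how far repeat cultures of a line differ. Omni-ATAC-seq, which marks open chromatin by transposase insertion, was performed on Mock and DAC cultures of A549, H1299 and the lines labelled CL1-5 and PC9 (8 libraries). Each culture was a line grown alone in medium with 10% serum.

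The complex has 7 positions. The actin-related proteins ARP2 (gene ACTR2) and ARP3 (ACTR3 or its paralog ACTR3B) form the template of the new filament, ARPC2 and ARPC4 form the core that holds the complex to the mother filament, and ARPC1, ARPC3 and ARPC5 complete it. ARPC1 is encoded by ARPC1A or ARPC1B and ARPC5 by ARPC5 or ARPC5L, so that a cell can assemble several versions. The complex is inactive until a nucleation-promoting factor such as N-WASP (WASL) or a WAVE protein binds it, and coronins, GMF proteins and arpin limit its branches. The study followed actin regulators that rise after DAC, and the subunits are a constitutive counterpart to those genes. The comparison asks how the level of each subunit differed between DAC and Mock, line by line and paralog by paralog.

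Levels are FPKM, fragments scaled for transcript length and library size, from which whole read numbers could be recovered. The 10 libraries without H1299 hold 22234485 to 25303899 reads on genes, and the 2 H1299 libraries hold 52634234 and 59735913, most of them in even numbers, so that H1299 reads are not independent counts. Each subunit had at least 214 reads in its weakest library, and for 9 of the 10 members the weakest library had at least 849. Epithelial keratins were near 0 in CL1-0 (KRT8 at 0.154 FPKM in Mock), and the summed level of the 5 epithelial markers ran from 0.986 FPKM in CL1-0 to 3015 FPKM in A549 among Mock cultures. Of 5 leukocyte markers, PTPRC and CD3E stayed at or below 0.0759 and 0.0304 FPKM in the 12 libraries. The sum of the 5 was 0.133 to 4.23 FPKM in Mock and 0.939 to 9.68 after DAC, highest in A549. The fibroblast collagen COL1A1 reached 68.6 FPKM in Mock H1792 and 74.9 after DAC, against 3.37 or less in the 10 libraries of the other lines. The Omni-ATAC-seq libraries labelled CL1-5 and PC9 went against their labels. Of 143 genes with at least 5 FPKM in Mock PC9 and under 0.1 in Mock CL1-5, a peak lay at the promoter of 92.3% in Mock of label CL1-5 against 51.7% in Mock of label PC9, while for 80 genes with the opposite pattern the shares were 62.5% and 87.5%. They are called below by their labels, and no accessibility value of these libraries is joined to the expression of a line.

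Most promoters of the subunits hold more CpG, the dinucleotide that DNA methyltransferases modify, than the median promoter. In the 250 bases before the canonical transcript start (GRCh37, GENCODE annotation), the 10 members hold 16 (ARPC3) to 35 (ARPC2) CpG with a median of 26, against a median of 18 over 20886 promoters of the same length. ARPC3 lies below that median and ARPC4 at it. The 4 actin genes named by the study (HCLS1, CORO1A, FES and DAPK3) also have a median of 26. The windows of ARPC5 and ACTR3 are shown because they hold the fewest annotated exon bases of the members (0 and 26). Beside them stands that of HCLS1 (24 such bases), the actin regulator that differed most after DAC. ARPC5 is CpG-dense, ACTR3 is nearer to the median promoter and HCLS1 is CpG-poor. The window of DAPK3, also with 24 exon bases, is not shown. Capitals mark each CpG, and each sequence is given 5′ to 3′ on the strand of its gene.
ARPC5, chr1:183604919-183605168, minus strand, 31 CpG: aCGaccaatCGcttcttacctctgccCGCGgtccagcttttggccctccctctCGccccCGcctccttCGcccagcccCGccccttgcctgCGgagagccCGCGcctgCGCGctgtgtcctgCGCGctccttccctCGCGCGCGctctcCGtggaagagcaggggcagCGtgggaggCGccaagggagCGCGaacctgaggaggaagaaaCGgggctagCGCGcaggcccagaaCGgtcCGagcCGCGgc
ACTR3, chr2:114647416-114647665, plus strand, 21 CpG: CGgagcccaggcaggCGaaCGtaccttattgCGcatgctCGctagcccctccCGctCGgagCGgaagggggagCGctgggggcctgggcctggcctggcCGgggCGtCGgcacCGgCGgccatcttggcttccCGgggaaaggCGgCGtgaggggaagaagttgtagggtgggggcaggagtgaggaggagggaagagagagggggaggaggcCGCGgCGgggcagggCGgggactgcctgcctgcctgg
HCLS1, chr3:121379751-121380000, minus strand, 2 CpG: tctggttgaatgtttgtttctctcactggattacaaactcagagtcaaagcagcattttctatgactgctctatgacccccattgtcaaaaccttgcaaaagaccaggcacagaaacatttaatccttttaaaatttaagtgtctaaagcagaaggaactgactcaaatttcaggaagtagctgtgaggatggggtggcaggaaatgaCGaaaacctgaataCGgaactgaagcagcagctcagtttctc
Fewer CpG than in the ARPC5 window were found in 84.5% of promoters and fewer than in the ACTR3 window in 57.9%, while 7.01% had fewer than the 2 of HCLS1. A low CpG count was not shared by the other genes the study named in this group, since CORO1A, FES and DAPK3 hold 23, 29 and 31 CpG in this window. DNA methylation was not analysed here.

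No subunit passed the threshold after DAC. In limma, fitted to log2(FPKM + 0.1) of 22603 genes over the 5 lines other than H1792 with the cell line as block, 0 of the 10 members had a Benjamini-Hochberg adjusted p under 0.05 in either direction, against 0.119% of all genes called higher and 0% called lower. At an unadjusted p under 0.05, 1 member was lower and 0 were higher, against 4.4% and 8.07% of all genes. The fitted log2 fold changes were above 0 for 5 members and below 0 for 5, with a median of -0.02 beside 0.07 over all genes tested. In limma voom on the recovered reads, 0 members were called at an adjusted p under 0.05 and 0 at an unadjusted one. With n = 5 lines the 95% intervals, which are not adjusted for the number of genes, remain wide. On the log2 scale that of ARPC1A reached lowest (-0.59 to -0.04) and that of ARPC5L highest (-0.28 to 0.59). The ARPC1A interval lay below 0. Those of the other members cover 0, and changes inside them could not be told from none.

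**Figure D1:**
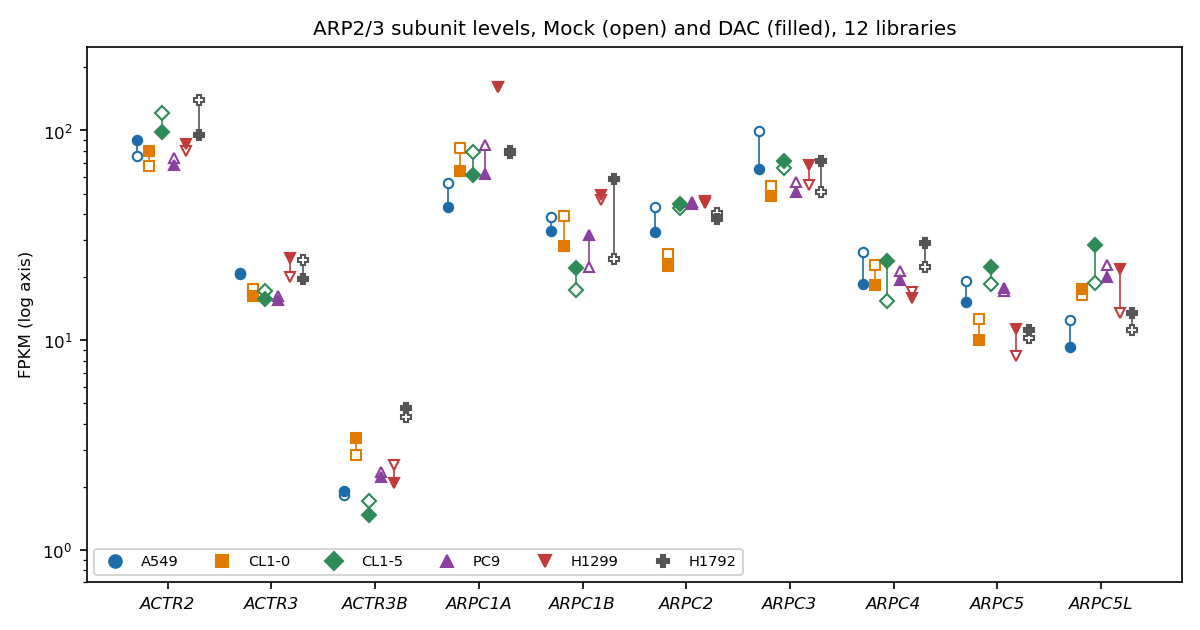
FPKM of each ARP2/3 subunit gene in 6 lung cancer lines (log axis, 12 mRNA-seq libraries). Open symbols are Mock and filled symbols DAC, joined within a line. ACTR3B lies below the other 9 subunits in every library, and H1299 holds the highest ARPC1A values (161 FPKM in Mock and after DAC).

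ACTR2 encodes ARP2. Its level in Mock ran from 67.7 FPKM in CL1-0 to 139.7 in H1792 with a median of 77.5, and after DAC from 68.6 to 97.8 with a median of 88.5. The line with the highest Mock level, H1792, was at 95.2 FPKM after DAC, and A549 went from 75.5 to 90.4, so that the groups overlapped and the lines moved in both directions. The fitted log2 fold change over 5 lines was 0.04 ± 0.13 (SE; limma adjusted p = 0.903).

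ACTR3, which encodes ARP3, was the steadiest member. In Mock its level was 20.7 FPKM for A549, 17.5 for CL1-0, 17.1 for CL1-5, 16.3 for PC9, 20.1 for H1299 and 24.1 for H1792. After DAC it was 21.0, 16.2, 15.7, 15.6, 24.7 and 19.5 FPKM in the same order. The Mock and DAC values share nearly their whole range. Its SD over the 12 libraries was 0.23 on the log2 scale, and 0.816% of the 13363 genes at a mean of 1 FPKM or more had a lower SD. The fitted change was 0.01 ± 0.11 (limma adjusted p = 0.987), with a 95% interval from -0.25 to 0.26. ACTR3B, the paralog that can take the place of ARP3, was last of the 10 members in 12 of 12 libraries, at 1.70 to 4.32 FPKM in Mock (median 2.44) and 1.46 to 4.73 after DAC (median 2.16). Its reads are uncertain, since 24.5% of the 50-base windows of its canonical transcript also occur in other genes, and 15.7% of its windows occur in the close copy ACTR3C (0.233 to 2.04 FPKM).

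ARPC1A, 1 of the 2 WD-repeat subunits of the ARPC1 position, was the member with the lowest fold change. In Mock it stood at 56.2 FPKM for A549, 82.7 for CL1-0, 79.0 for CL1-5, 85.1 for PC9, 160.6 for H1299 and 79.8 for H1792. After DAC it stood at 43.1, 64.0, 61.2, 62.2, 160.6 and 78.2 FPKM in the same order. A549, CL1-0, CL1-5 and PC9 were each lower by 0.37 to 0.45 on the log2 scale, while H1299 and H1792 differed by less than 0.03. The groups overlap because the lines differ more from each other than DAC from Mock. The fitted log2 fold change was -0.31 ± 0.12 (unadjusted p = 0.0320 in limma, adjusted p = 0.364), and the value was below 0 in 5 of 5 lines, which 4.39% of all genes were. H1299 enters that count at -0.0007, which is next to no difference. When FPKM were rescaled to a common sum, which moves the median of all genes from 0.07 to 0.17, the change of ARPC1A was -0.19 (adjusted p = 0.458). On that scale A549 was at -0.03, CL1-0 at -0.19, CL1-5 at -0.48, PC9 at -0.28, H1299 at 0.04 and H1792 at -0.20. The size of the difference in A549 and H1792, and its sign in H1299, thus depend on the scaling.

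ARPC1B, the paralog that is the main ARPC1 of blood cells, moved apart between lines. In Mock it stood at 38.9 FPKM for A549, 39.1 for CL1-0, 17.3 for CL1-5, 22.5 for PC9, 46.5 for H1299 and 24.3 for H1792. After DAC it stood at 33.3, 28.2, 22.2, 31.6, 49.3 and 58.9 FPKM in the same order. A549 and CL1-0 were lower and the other 4 lines higher, but with FPKM rescaled to a common sum A549 turned from -0.22 to 0.13 on the log2 scale. H1792 had a log2 fold change of 1.27, which was the only 1 of the 60 changes of a member within a line to reach 2-fold. In H1792, 11.4% of genes at a mean of 1 FPKM or more differed by at least 2-fold in either direction. H1792 was outside the 5-line fit, which gave 0.05 ± 0.16 (adjusted p = 0.915), and with H1792 included the fit gave 0.25 (adjusted p = 0.666). The fibroblast marker DCN in H1792 was at 3.53 FPKM in Mock and 11.1 after DAC, and its part in the H1792 values was not tested. 1 H1792 library per treatment gives no replicate check of this difference.

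ARPC2 and ARPC4 form the core of the complex. ARPC2 ran from 25.8 FPKM (CL1-0) to 45.0 (H1299) in Mock with a median of 43.0, and from 22.5 to 46.1 after DAC with a median of 41.3. Without CL1-0, the 5 Mock libraries lay between 40.4 and 45.0 FPKM. ARPC4 ran from 15.5 to 26.4 FPKM in Mock (median 21.9) and from 15.9 to 29.0 after DAC (median 18.9). The fitted changes were -0.09 ± 0.12 for ARPC2 (limma adjusted p = 0.744) and -0.09 ± 0.17 for ARPC4 (adjusted p = 0.834). The study named ARPC2 among DAC-induced surface proteins, a measure that mRNA levels do not test. ARPC4 was lower after DAC in A549 (26.4 to 18.4 FPKM) and higher in CL1-5 (15.5 to 23.8 FPKM). The canonical exons of ARPC4 are shared at 37.8% of their bases with the readthrough gene ARPC4-TTLL3, which has no row in the expression table, and how reads of the readthrough were counted is not given in the sources used here.

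ARPC3, the subunit that contacts ARP3, was at 99.3 FPKM in Mock A549 and between 50.7 and 66.2 in the other 5 Mock libraries. After DAC it was at 65.5 in A549 and between 48.6 and 71.4 in the others. The log2 fold change was -0.60 in A549, 0.31 in H1299 and 0.49 in H1792, and with FPKM rescaled to a common sum the A549 value was -0.25. The fitted change over 5 lines was -0.10 ± 0.15 (limma adjusted p = 0.782). ARPC3 has processed copies elsewhere in the genome, and 28.5% of its 50-base windows occur in other genes.

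ARPC5 and ARPC5L encode the smallest subunit. ARPC5 ran from 8.43 FPKM (H1299) to 19.2 (A549) in Mock with a median of 14.9, and from 10.1 to 22.3 after DAC with a median of 13.3. ARPC5L ran from 11.2 to 22.9 FPKM in Mock (median 14.96) and from 9.30 to 28.4 after DAC (median 18.8). The fitted change of ARPC5L was 0.16 ± 0.18 (limma adjusted p = 0.725), with log2 fold changes of 0.60 in CL1-5, 0.69 in H1299 and -0.42 in A549. It was 0.023 without H1299, 0.044 without CL1-5, 0.24 without PC9 and 0.30 without A549. The fitted change of ARPC5 was 0.02 ± 0.15 (adjusted p = 0.969).

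Read per length, the positions of the complex were not at equal mRNA levels. By mean FPKM over the 12 libraries the order was ACTR2 (89.6), ARPC1A (84.4), ARPC3 (63.3), ARPC2 (39.2), ARPC1B (34.3), ARPC4 (20.9), ACTR3 (19.0), ARPC5L (17.1), ARPC5 (14.5) and ACTR3B (2.62). Several neighbours in that order do not differ beyond their spread. ACTR2 was above ARPC1A in 8 of 12 libraries, ARPC2 above ARPC1B in 6, ARPC4 above ACTR3 in 7 and ACTR3 above ARPC5L in 7. ARPC3 lay above ARPC2 in 12 of 12 libraries and ARPC5 above ACTR3B in 12 of 12. With paralogs summed, the ARPC1 position was highest in 7 of 12 libraries (76.4 to 209.8 FPKM) and the ARP3 position (17.2 to 28.5 FPKM) or the ARPC4 position (15.5 to 29.0 FPKM) lowest in 11. The highest position stood 4.42-fold to 13.2-fold above the lowest within a library (median 5.74-fold). These are levels of mRNA, and protein was not analysed here.

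The paralog pairs were compared as shares of the summed FPKM of a pair. ARPC1B supplied 40.9% of the ARPC1 sum for Mock A549, 32.1% for CL1-0, 17.9% for CL1-5, 20.9% for PC9, 22.4% for H1299 and 23.4% for H1792. After DAC its share was 43.6%, 30.6%, 26.6%, 33.7%, 23.5% and 42.9% in the same order. The share was higher after DAC in every line but CL1-0, by 1.05 to 12.8 percentage points in the 5-line set and by 19.6 in H1792. The mean difference over 5 lines was 4.73 ± 5.86 percentage points (SD, n = 5; exact two-sided sign-flip permutation test, p = 0.188, adjusted over the 3 pairs p = 0.469), and 5 lines cannot give a p under 0.0625 in this test. With H1792 it was 7.21 ± 8.02 points (n = 6; exact p = 0.0938, adjusted p = 0.281). ARPC1A and ARPC1B are neighbours on chromosome 7, at chr7:98923521-98963885 and chr7:98971872-98992439 (GRCh37), and a readthrough gene annotated over both covers 76.5% and 85.5% of their canonical exon bases without a row in the table. ARPC1B also shares 16.1% of its exon bases with the antisense gene PDAP1, and whether counting used strand is not given in the sources used here.

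ARPC5L supplied 39.3% of the ARPC5 sum in Mock A549 and between 50.2% and 61.6% in the other 5 Mock libraries. After DAC it supplied 37.9% in A549 and between 53.2% and 65.8% in the others. A549 is thus the line in which ARPC5 exceeded ARPC5L in both libraries. The mean difference was 2.30 ± 4.70 percentage points over 5 lines (exact sign-flip permutation p = 0.313, adjusted p = 0.469), higher in 3 of 5 lines. ACTR3B supplied 8.13% to 15.2% of the ARP3 sum in Mock and 7.78% to 19.5% after DAC. Its mean difference was -0.05 ± 2.48 percentage points over 5 lines (exact sign-flip permutation p = 0.938, adjusted p = 0.938), with CL1-0 higher by 3.53 and H1299 at -3.44.

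**Figure D2:**
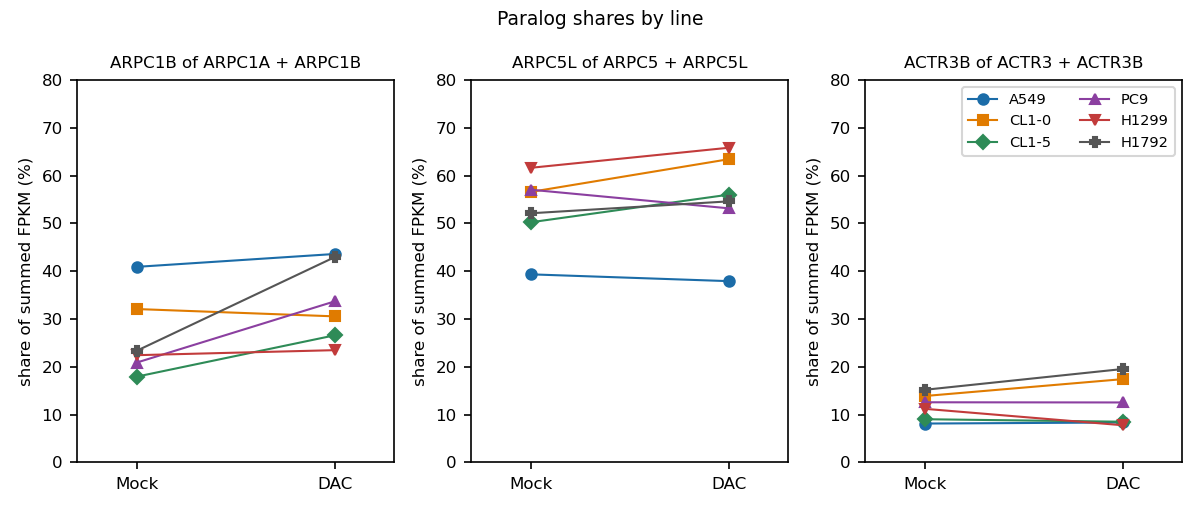
Share of the second paralog in the summed FPKM of each pair (%, per line, Mock joined to DAC, 1 library per point). The ARPC1B share is higher after DAC in every line but CL1-0 and most so in H1792 (23.4% to 42.9%), and ACTR3B stays between 7.78% and 19.5%.

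Line by line, the members moved as a group by less than 2-fold. The median log2 fold change of the 10 members was -0.36 for A549, -0.18 for CL1-0, 0.09 for CL1-5, -0.08 for PC9, 0.10 for H1299 and 0.13 for H1792. The A549 value goes with a lower sum of FPKM over all genes, 326951 after DAC against 416327 in Mock. With FPKM rescaled to a common sum the A549 median of the members was -0.01. The A549 median of all genes tested was 0.07 as deposited and 0.36 rescaled, so the members lay below it on both scales. On the common-sum scale the 6 medians of the members lay between -0.04 and 0.14. Those of all genes tested ran from -0.07 (CL1-5) to 0.36 (A549). Of the 60 changes of a member in a line, 28 were above 0 and 32 below. Of the 10 members, 9 stayed within 2-fold in 6 of 6 lines, as 67.3% of the 13363 genes at a mean of 1 FPKM or more did. CL1-0, CL1-5, PC9, H1299 and A549 had 0 members past 2-fold each, where the share of those genes past it was 3.84%, 6.54%, 6.82%, 10.7% and 15.7%.

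**Figure D3:**
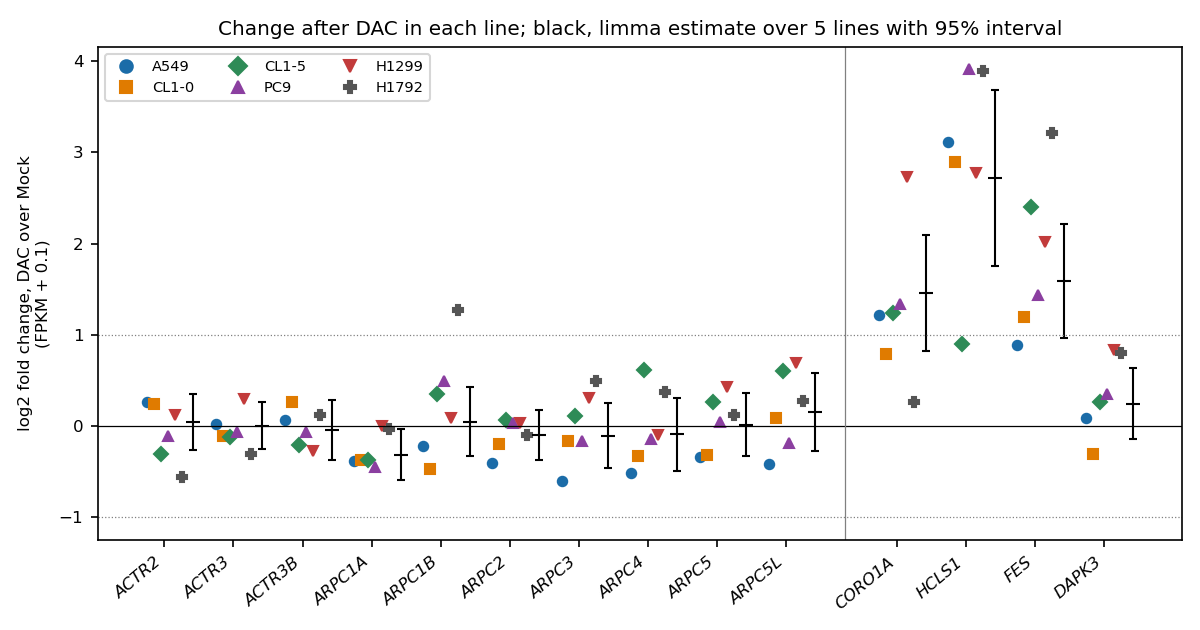
log2 fold change after DAC (FPKM + 0.1) in each of 6 lines for the 10 subunits (left of the grey line) and the 4 actin genes the study named (right). Black marks are the limma estimates over 5 lines with their 95% intervals and dotted lines mark 2-fold. The subunits lie around 0 except ARPC1B in H1792 (1.27), while HCLS1 lies between 0.90 and 3.91.

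The 4 actin genes that the study named from its mRNA data were read on the same scale. Since they were chosen on these samples, their direction is not independent evidence. HCLS1, a cortactin relative of blood cells that binds the ARP2/3 complex, was at 0.00916 FPKM for Mock A549, 0 for CL1-0, 0.174 for CL1-5, 0.0378 for PC9, 0.0275 for H1299 and 0.182 for H1792. After DAC it was at 0.846, 0.643, 0.412, 1.97, 0.773 and 4.07 FPKM in the same order, so that the Mock and DAC values did not overlap. CORO1A, a coronin that binds filaments and the complex, was at 0.671, 5.42, 2.48, 0.938, 0.262 and 0.348 FPKM in Mock and at 1.69, 9.46, 5.99, 2.52, 2.30 and 0.436 after DAC. The fitted log2 fold changes were 2.72 ± 0.41 for HCLS1 (limma adjusted p = 0.0857), 1.46 ± 0.27 for CORO1A (adjusted p = 0.158), 1.59 ± 0.26 for the tyrosine kinase FES (adjusted p = 0.115) and 0.25 ± 0.17 for the kinase DAPK3 (adjusted p = 0.550). HCLS1, CORO1A and FES were higher in 5 of 5 lines, as 6.76% of all genes were, and 3 of these 4 genes had an unadjusted p under 0.05. The values of the low genes depend on the pseudocount. HCLS1, whose Mock level rests on 0 to 24 reads, ran from 0.83 with a pseudocount of 1 to 4.49 with 0.01, while FES was at 0.63 and CORO1A at 0.93 with 1. DAPK3 was at 0.10 without H1299 and 0.39 without CL1-0. In H1299, the line of the study's example, DAPK3 went from 15.2 to 27.2 FPKM (log2 fold change 0.84). HCLS1 passed the threshold with H1792 included (adjusted p = 0.0293) and in limma voom (adjusted p = 0.0391), as FES did in voom (adjusted p = 0.0464). The voom fit took the H1299 reads as counts, though they are not independent. It called 199 of all genes, against 27 in the main fit.

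HCLS1, CORO1A and FES were low beside most subunits, while DAPK3 (6.66 to 27.2 FPKM) lay within the range of the subunits. After DAC, HCLS1 at its highest (4.07 FPKM in H1792) stood near the highest ACTR3B value of 4.73 and below the other 9 subunits in that library. CORO1A at its highest (9.46 FPKM in CL1-0) stood below ARPC5 (10.1 FPKM) and above ACTR3B (3.43 FPKM) in the same library. Marker sums of other cell types were also higher after DAC. The sum of 4 fibroblast markers was 0.276 to 75.7 FPKM in Mock and 1.17 to 98.4 after DAC, higher in 6 of 6 lines. That of the epithelial markers was higher in 3 of 6. The sum of 5 leukocyte markers was 0.133 to 4.23 FPKM in Mock and 0.939 to 9.68 after DAC, higher in 6 of 6 lines, and TYROBP had a log2 fold change of 2.90 (limma adjusted p = 0.0937), while PTPRC and CD3E, defining genes of leukocytes, remained at or below 0.0759 and 0.0304 FPKM.

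Around the complex, 0 genes of the lists described here passed the adjusted threshold. Of 10 nucleation-promoting factors, which activate the complex, 2 had an unadjusted p under 0.05 and a higher level, as 8.07% of all genes had, namely HCLS1, which the study chose on these samples, and WHAMM (0.34 ± 0.12, limma adjusted p = 0.352), and the median log2 fold change was 0.11. WASF2, the WAVE protein with the highest level, had the lowest value of the list (-0.30 ± 0.19). Of the WAVE complex partners 7 of 8 were tested, with a median of -0.12 from BRK1 at -0.20 to ABI3 at 1.18 (0.0251 FPKM in Mock and 0.393 after DAC, means of 5 lines). The 3 WASP-interacting proteins had a median of 0.05, from WIPF3 at 0.04 to WIPF1 at 0.53.

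Among the 11 inhibitors and debranching factors, 4 had an unadjusted p under 0.05 and a higher level, as 8.07% of all genes had, namely CORO1A, which the study chose on these samples, CORO2A (0.65 ± 0.21, limma adjusted p = 0.305), CORO6 (0.64 ± 0.20, adjusted p = 0.300) and GMFB (0.39 ± 0.15, adjusted p = 0.364). The list median was 0.06, and its lowest value was that of ARPIN, an inhibitor of the complex, at -0.45 ± 0.19. Of 19 other nucleators, formins and leiomodins among them, 16 were tested, with a median of 0.04 from SPIRE2 at -0.39 to LMOD1 at 0.50. The 6 actin isoforms had a median of 0.23, from ACTG1, the abundant gamma actin, at -0.37 ± 0.24 to ACTG2 at 0.64. The 15 genes of filament turnover and capping had a median of -0.15, from TWF2 at -0.38 ± 0.11 (adjusted p = 0.286, lower in 5 of 5 lines) to TWF1 at 0.15. The 8 other actin-related proteins had a median of -0.07, from ACTR1B at -0.27 to ACTR6 at 0.35. The median of all genes tested was 0.07, and these lists are described by their counts without a test between them.

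Members did not vary together across libraries. Over the 12 libraries the Pearson correlations of log2(FPKM + 0.1) between pairs of members had a median of 0.15, from -0.73 (ARPC5 and ACTR3B) to 0.49 (ARPC3 and ARPC5). The 12 points are 6 lines measured in pairs, and libraries of a line share their genotype. The mean log2 level of the 10 members ran from 4.48 (CL1-0 after DAC) to 4.88 (H1792 after DAC), a narrow range. The 5 genes outside the members whose log2 levels followed that mean most closely, among 12274 genes compared, were C6orf203 (r = 0.90), TBPL1 (0.88), KCMF1 (0.88), CTDP1 (0.85) and ALG2 (0.83). The median r over the genes compared was 0.03. These 5 are the highest of 12274 values, and how high the top of so many would lie by chance was not tested.

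At the promoters of the subunits, open chromatin was found with and without DAC. A peak covered the canonical transcript start of each of the 10 members in 8 of 8 libraries, as it did for 65.7% of 14699 genes ranked. The peaks were 348 to 1625 bp wide, with fold enrichments over background, as the authors' peak caller gives them, from 2.98 to 10.4. The ARPC5L start shares its peak with RPL35, the gene to which the lists assign it in 8 of 8 libraries. At ARPC5 the peak of Mock A549 lay at chr1:183604359-183605553 and contained the sequence shown above. At HCLS1 a peak covered the start in 1 of 8 libraries, DAC of the line labelled PC9, with a fold enrichment of 3.06. At CORO1A the start was covered in 8 of 8 libraries (highest fold enrichment 3.999 in DAC A549, lowest 2.83 in DAC H1299).

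Fold enrichments were compared as percentiles within each library, taking the strongest peak within 3000 bp of the canonical start. ARPC1A ranked high, from 77.2 to 95.5 over the 8 libraries (median 84.4), and ARPC5 from 73.7 to 91.0 (median 77.9). ARPC1B had the lowest median of the members, 29.9 (from 18.6 to 37.3), with peaks of 1449 to 1625 bp, and was the lowest member in 7 of 8 libraries. In Mock of label CL1-5 ARPC2 ranked below it. The percentile of ARPC1B was lower after DAC in 4 of 4 lines, as that of 14.4% of the 14699 genes was, 36.3 to 22.3 in A549, 27.1 to 18.6 in the line labelled CL1-5, 35.4 to 29.5 in that labelled PC9 and 37.3 to 30.4 in H1299. ARPC2 was higher after DAC in 4 of 4 lines, as 7.26% of genes were, 39.3 to 41.8, 23.8 to 32.9, 47.4 to 55.7 and 41.7 to 47.1 in the same order. The other 8 members had changes in both directions. These are 2 of 10 members, picked out after their values were seen. The DAC libraries hold more peaks than the Mock libraries in each of the 4 lines, and the part of peak number in these ranks was not tested, since keeping the same number of strongest peaks per line leaves the rank of each retained peak where it was.

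With peaks taken as the lists assign them to genes, the median change over the 10 members was -1.70 percentile points in A549, 1.13 in the line labelled CL1-5, -0.41 in that labelled PC9 and 3.66 in H1299, a mean of 0.67 ± 2.30 (SD, n = 4). The median over all 15425 genes ranked was -0.65 to -1.39 in the same lines. ARPC4 had a peak under its own name in 3 of 8 libraries, since the peak was assigned to ARPC4-TTLL3 in the others. By position, which was added after the data were seen, the mean was 0.97 ± 3.27. The sign of this median depends on the measure of the peak, and ranked by summed width it was -5.08 points. The number of peaks inside the 10 genes was 15 to 25 in Mock and 27 to 29 after DAC, in libraries of 45354 to 85710 and 63541 to 97584 peaks.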

How the data were processed

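mRNA-seq was read in 12 libraries of 6 lung cancer lines and Omni-ATAC-seq in 8 libraries of 4, grouped by the line and treatment in their labels. For mRNA-seq the authors aligned reads to hg19 (the study's methods give RSEM with bowtie2, the submitters' processing notes TopHat2 2.1.1), counted them per gene, and deposited FPKM scaled with DESeq2 1.24.0 size factors, with a mean normalized signal per gene. How multi-mapped reads were treated is not given in the sources used here. The table's columns of the authors' own comparison (a log2 fold change, its error, a statistic and p-values) were not used. For Omni-ATAC-seq the authors aligned with BWA 0.7.17-r1188, called broad peaks per library with MACS2 2.2.5 and annotated them with ChIPseeker 1.20.0. The deposited lists give each peak a score, a fold enrichment (a ratio) and −log10 p- and q-values, and the read depth of each of these libraries is not given in the sources used here. Columns of values that belong to no sample numbered 0.

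Whole reads were recovered for 100% of the FPKM values checked, within 0.02 reads. The check covered lower read numbers only. Higher ones, such as those of ARPC1A (2787 reads or more), were rounded to whole reads without it. Genes averaging 0.1 FPKM or more in 10 libraries were fitted as log2(FPKM + 0.1) with limma 3.58.1 (R 4.3.3), with the cell line as block and an intensity trend, and p-values were adjusted by Benjamini-Hochberg at 0.05. Mock and DAC are paired by the line in the labels: after the mean of each treatment was taken away, libraries of 1 line correlated at 0.73 to 0.90 and those of different lines at 0.115 or less. The fit was also run on simulated data in which a gene had the same fold change in every line. That run cannot tell how the fit handles lines that respond differently. Paralog shares were tested with exact sign-flip permutations over lines. H1792, which the study left out of its own comparison, entered as an alternative.

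Genes and promoter windows were located with GENCODE on GRCh37, the build of the peak lists. Python 3.11.15, numpy 2.4.6 and matplotlib 3.10.9 were used.

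The members and gene lists were chosen with earlier results of these data known. Named genes are the 10 members, ACTR3C, the study's 4 actin genes, the highest and lowest value of each list, the members past the threshold, and the 5 genes most like the mean of the members. WHAMM, CORO2A, CORO6, GMFB, TYROBP, DCN, COL1A1, KRT8, PTPRC and CD3E were named after their values were seen. A further gene list is not reported here. The alternatives were H1792 included, no block, other pseudocounts, filters and scalings, voom, each line left out, read shares, log2 ratios, and other windows, q-values and measures of peaks.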

Additional observations from a re-analysis of the deposited data

Results flagged for a closer look

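Of 69 groups of 4 or 6 values of the subunits (levels, changes, paralog shares and promoter percentiles), 2 held a value far from the others, and chance gives about 1 in 20. ARPC2 in Mock was lowest in CL1-0, at 4.69 on the log2(FPKM + 0.1) scale, against 5.34 to 5.50 in the other 5 lines. The promoter peak of ARPC4 in Mock was highest in the library labelled PC9, at percentile 87.7, against 58.9 to 62.0 in the other 3.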

How the results depend on the processing

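Of 271 values computed under alternatives, 243 kept their direction and their side of the threshold or moved by less than the spread. In 15 alternatives of the limma fit, 0 subunits passed the adjusted threshold (0 to 1 unadjusted), with adjusted p of 0.339 or more, while the number of all genes called ran from 0 (pseudocount 1, without A549 or without CL1-5) over 2 (no filter), 5 (without CL1-0), 6 (no trend), 10 (no replicate block), 12 (without PC9), 17 (quantile), 28 (mean of 1 FPKM or more), 30 (common sum) and 53 (H1792 included) to 199 (voom) against 27. Without the cell line block the log2 fold changes were the same and 0 subunits passed (adjusted p = 1.00 for each). Changes near 0 turned sign. With FPKM rescaled to a common sum, ARPC2 was 0.031, ARPC3 0.021, ARPC4 0.033 and ACTR3B 0.076, and in voom 0.019, 0.013, 0.013 and 0.055. On both scales the split of members above and below 0 went from 5 and 5 to 9 and 1. The median of the members was 0.10 and 0.09, beside 0.169 and 0.172 over all genes tested. With quantile normalization ARPC3 was 0.022. With H1792 included, ACTR2 was -0.056 and ACTR3 -0.047, 3 members lay above 0 and 7 below, and the ACTR3B share changed by 0.68 points. With 1 line left out in turn, the fits ran from -0.062 to 0.18 for ARPC1B, -0.20 to 0.021 for ARPC3, -0.27 to 0.016 for ARPC4, -0.085 to 0.10 for ARPC5, 0.023 to 0.30 for ARPC5L, -0.011 to 0.13 for ACTR2, -0.067 to 0.038 for ACTR3 and -0.12 to 0.016 for ACTR3B. Those of ARPC1A stayed between -0.39 and -0.28, with an unadjusted p under 0.05 without H1299 and above it without each other line. The median of the members ran from -0.08 to 0.01, the share of ARPC1B from 2.71 to 6.30 points (2.71 without PC9, against 4.73), that of ARPC5L from 1.16 (without CL1-0) to 3.85 (without PC9), that of ACTR3B from -0.94 to 0.80, and the promoter rank change from -0.33 (without H1299) to 1.46 (without A549). Ranked by summed peak width the promoter change was -5.08 points. The cause was not tested. The number of lines limits these comparisons, and the depth of each Omni-ATAC-seq library is not given in the sources used here.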
